A study of Mus musculus with 18 samples.

Results

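The immediate early genes Fos, Fosb, Jun, Junb, Egr1, Nr4a1, Ier2, Btg2, Klf4 and Klf6 were followed across 6 groups of splenic B cells that had been exposed to different forms of the cytokine BAFF. The 10 genes were chosen by symbol and matched to Ensembl gene IDs, and all 10 were among the 11646 genes tested out of 35275 in the expression table. Pan B cells from spleens of C57BL/6 mice were held for 1 h with 1000 ng/ml of either a control antibody or mBaffR-mFc, a reagent that per the labels blocks the site on BAFF used by its receptor BR3. For the next 4 h they received 100 ng/ml of BAFF as a 3mer (groups Ab_3mer and BRFc_3mer), 100 ng/ml of BAFF as a 60mer (Ab_60mer and BRFc_60mer), or no BAFF (Ab and BRFc). Every group had 3 libraries, and all cells spent the same time in culture, so Ab is the reference for BAFF under control antibody and BRFc the reference under mBaffR-mFc. The labels do not give the age or number of the mice, nor whether the 3 libraries of a group came from separate animals, so each p-value speaks only to the spread among the libraries at hand, which may be technical. Library numbers below follow the order of deposition and are names only.

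Immediate early genes are switched on within minutes of a stimulus, without new protein synthesis, by transcription factors that are already present in the cell, such as SRF with its ternary complex partners and CREB. Many of their products are transcription factors, and their messenger RNAs are short-lived, so levels fall again quickly when the stimulus ends or is countered by feedback. In B cells they respond to antigen receptor, CD40 and Toll-like receptor signals, and several of them (Btg2, Klf4 and the related Klf2) are also known as genes of resting, non-dividing lymphocytes. BAFF is the survival cytokine of mature B cells, and its main receptor on them, BR3, acts chiefly through the noncanonical NF-kB pathway. A time point of 4 h lies after the usual peak of an immediate early response.

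Promoter sequences are shown for 4 of the genes, Btg2 and Klf4, whose levels differed between BAFF conditions, and Fos and Nr4a1, whose levels varied together from library to library. Each is the 250 bases before the start of transcription, 5′ to 3′ on the gene's strand, from RefSeq on build GRCm38.p6. These are chr1:134079156-134079405 on the minus strand for Btg2, chr4:55532476-55532725 on the minus strand for Klf4, chr12:85473640-85473889 on the plus strand for Fos and chr15:101266596-101266845 on the plus strand for Nr4a1, which lies at a start inside the longest annotated Nr4a1 gene body. Capitals mark the core of the cyclic AMP response element, TGACG or its reverse complement CGTCA, and in Btg2 a pair of overlapping cores, on opposite strands, that together make the full palindrome TGACGTCA.
Btg2: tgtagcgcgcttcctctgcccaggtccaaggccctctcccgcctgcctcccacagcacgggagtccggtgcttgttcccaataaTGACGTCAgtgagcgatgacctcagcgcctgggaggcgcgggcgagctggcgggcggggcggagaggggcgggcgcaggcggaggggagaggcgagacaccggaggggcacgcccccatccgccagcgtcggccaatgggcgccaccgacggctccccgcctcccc
Klf4: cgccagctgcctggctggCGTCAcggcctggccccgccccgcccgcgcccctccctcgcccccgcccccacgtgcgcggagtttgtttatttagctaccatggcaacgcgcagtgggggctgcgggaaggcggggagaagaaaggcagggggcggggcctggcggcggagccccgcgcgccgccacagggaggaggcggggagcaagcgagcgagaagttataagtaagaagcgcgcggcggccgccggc
Fos: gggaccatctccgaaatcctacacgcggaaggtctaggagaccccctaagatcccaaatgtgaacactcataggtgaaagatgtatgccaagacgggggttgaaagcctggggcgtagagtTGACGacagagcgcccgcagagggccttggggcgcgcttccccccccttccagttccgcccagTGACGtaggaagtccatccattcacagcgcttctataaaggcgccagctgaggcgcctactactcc
Nr4a1: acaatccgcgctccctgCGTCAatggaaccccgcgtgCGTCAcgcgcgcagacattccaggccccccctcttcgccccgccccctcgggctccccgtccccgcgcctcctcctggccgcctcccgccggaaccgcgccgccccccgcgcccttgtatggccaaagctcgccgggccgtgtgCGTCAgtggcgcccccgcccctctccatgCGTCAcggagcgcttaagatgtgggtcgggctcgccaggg
Of the 10 genes, 8 matched the promoter table. The core was found in 6 of these 8 (Fos, Fosb, Junb, Nr4a1, Btg2 and Klf4), against 17.8% of the 32851 promoter windows of the same length. The full element TGACGTCA, which contains the core, was present in Btg2 alone, from -166, against 1.55% of windows. The EGR motif GCGNGGGCG was found in 4 (Fosb, Nr4a1, Btg2 and Klf4; 4.70% of windows) and the SP and KLF motif GGGCGG, which can overlap it, in 7 (32.7%). An NF-kB consensus was found in Fos and Fosb (3.90% of windows), TATAAA in Fos (12.4%) and CCAAT in Jun, Junb, Btg2 and Klf6 (33.8%). Neither a CArG box (1.47% of windows) nor the AP-1 motif TGANTCA (6.75%) was found within these 250 bases of any of the 8. All searches covered both strands, and a match describes the letters only.

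The libraries held 12.2 to 25.4 M fragments (median 18.4 M), as recovered from the deposited values. The B cell markers summed to between 5763 and 6482 FPKM (fragments of a gene scaled to a library of 1 M fragments and a gene length of 1 kb) in all 18 libraries, myeloid markers to between 158 and 195, NK cell markers to between 99.0 and 125.8 and T cell markers to between 4.25 and 5.98. Connective tissue transcripts divided the libraries across the groups. The summed FPKM of 6 such genes was 8.14 to 12.9 in libraries 1 and 2 of Ab_3mer and in all libraries of Ab_60mer and BRFc_60mer, and at most 0.131 in the other 10. BAFF 60mer and these transcripts therefore cannot be told apart in the comparisons with no BAFF, nor in that with the 3mer under mBaffR-mFc. Under control antibody, 2 of the 3 libraries with the 3mer carried them too. Of 7 NK cell markers, 2 fell with the 60mer against no BAFF under control antibody and 1 under mBaffR-mFc, beside 8.94% and 3.37% of all tested genes. The NK cell marker sums were 99.0 to 101 FPKM in Ab_60mer, 102 to 107 in Ab_3mer and 112 to 122 in Ab. Under mBaffR-mFc they were 107 to 111 in BRFc_60mer, 114 to 126 in BRFc_3mer and 104 to 122 in BRFc. With the 3mer against no BAFF, 6 of the 7 had a negative difference under control antibody and 1 under mBaffR-mFc, and 0 passed. The part of NK cells in the differences below was not tested. In bulk RNA, fewer cells of a type and less RNA per cell cannot be told apart.

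The genes covered a wide range of levels. On the FPKM scale, Nr4a1, which encodes an orphan nuclear receptor used as a reporter of antigen receptor signals, had the highest mean over the 18 libraries (298 FPKM, from 212 to 400.3). Btg2, an antiproliferative adaptor of the mRNA deadenylation machinery, followed at 132 FPKM (114 to 143). Egr1, a zinc-finger transcription factor, and Junb, an AP-1 subunit, had nearly the same mean (66.1 and 66.0 FPKM) and overlapped throughout, with ranges of 41.9 to 89.8 and 49.4 to 82.3. Ier2, a nuclear protein of the IER family, averaged 48.8 FPKM (38.8 to 56.6) and Klf6, a Krüppel-like zinc-finger factor, 40.9 FPKM (34.5 to 46.4), and their ranges overlapped too. The remaining 4 were low. Fos averaged 12.8 FPKM (6.96 to 19.8), Jun 9.05 FPKM (7.66 to 10.7), Fosb 7.18 FPKM (3.75 to 10.7) and Klf4 4.51 FPKM (2.93 to 5.43), so that Fos, Jun and Fosb, the AP-1 subunits other than Junb, were not separated by their ranges. The gene lengths that reproduce whole fragments are shorter than the annotated union of exons for some genes (1092 against 2352 bases for Fos, 1470 against 3049 for Klf4), so the order of levels between genes rests on the lengths the submitters' provider used.

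**Figure D1:**
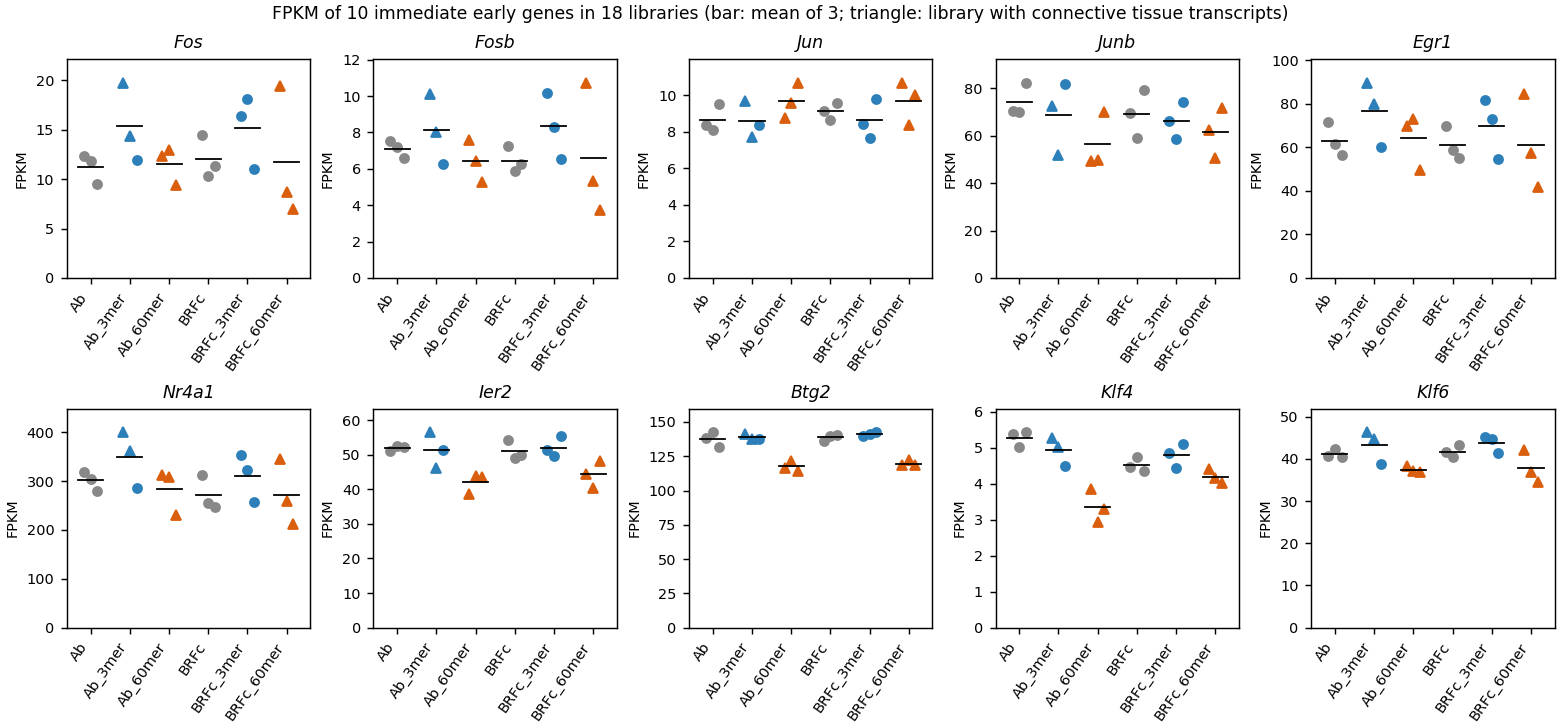
FPKM (vertical axes, from 0) of the 10 genes in each library of the 6 groups (horizontal axes); bars are means of 3 libraries, and triangles are libraries with connective tissue transcripts. Btg2 lies between 114 and 122 FPKM in the 6 libraries with BAFF 60mer and between 132 and 143 in the other 12, whereas Fos spans 6.96 to 19.4 FPKM within BRFc_60mer alone.

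Against no BAFF under control antibody, 3 of the 10 genes, Klf4, Ier2 and Btg2, fell with BAFF 60mer and none rose. The mean FPKM with the 60mer was 0.635 times that without BAFF for Klf4, 0.810 times for Ier2 and 0.854 times for Btg2. Of all tested genes, 8.94% were called lower in this comparison by the same test (limma, two-sided, Benjamini-Hochberg adjusted p under 0.05), 5.04% higher and 14% in either direction. The same 3 genes fell against BAFF 3mer, where 3.01% of all genes were called lower and 4.81% in either direction. The median difference of the 10 genes from no BAFF was -0.14 on the log2(FPKM + 1) scale, beside -0.02 over all genes tested. Differences and SE below are on that scale, and SE comes from the model with 6 groups.

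Btg2 (chr1:134075170-134079120, minus strand, GRCm38) restrains the cell cycle and is high in quiescent lymphocytes. Its FPKM was 138.6, 142.5 and 131.9 in the Ab libraries, 141.0, 137.5 and 137.7 in Ab_3mer, and 116.8, 121.6 and 114.4 in Ab_60mer. Under mBaffR-mFc it was 136.0, 140.1 and 140.4 in BRFc, 139.6, 141.2 and 142.6 in BRFc_3mer, and 118.3, 122.1 and 118.5 in BRFc_60mer. All 6 libraries with the 60mer were below all 12 others, whichever reagent came first. Within a reagent, such a separation in the lower direction was shown by 19.2% and 13.4% of all genes against no BAFF and by 12.1% and 14.1% against the 3mer, under control antibody and mBaffR-mFc. The share of genes with all 6 below all 12 others was not counted. Libraries 1 and 2 of Ab_3mer, which carry the connective tissue transcripts, were at 141.0 and 137.5 FPKM for Btg2. The part of these transcripts in its difference was not tested. The difference between 60mer and no BAFF was -0.23 ± 0.036 under control antibody (adjusted p = 0.000865) and -0.21 ± 0.036 under mBaffR-mFc (adjusted p = 0.00261). Against the 3mer, it was -0.24 ± 0.036 under both reagents (adjusted p = 0.00104 and 0.000972). Under mBaffR-mFc, Btg2 was the only one of the 10 to pass against no BAFF, where 3.37% of all genes were called lower (4.83% in either direction), and the only one against the 3mer, where 3.11% were (5.16% in either direction). The effect of the 60mer on Btg2 did not differ detectably between the reagents, with an interaction of 0.01 ± 0.051 (95% interval -0.096 to 0.121, adjusted p = 0.985). Once the model held a yes-or-no term for connective tissue transcripts, the difference from no BAFF kept its size but did not pass (-0.24, adjusted p = 0.244 under control antibody; -0.23, adjusted p = 0.457 under mBaffR-mFc), nor did that from the 3mer under mBaffR-mFc (-0.25, adjusted p = 0.285), while the difference from the 3mer under control antibody still did (-0.24, adjusted p = 0.00586). Only Ab_3mer held libraries both with and without these transcripts, so the term was estimated within that group alone. This widens the SE of the comparisons with no BAFF, and of that with the 3mer under mBaffR-mFc. For any gene, a call lost there with this term cannot decide the part of these transcripts. Fitted on the groups compared alone, the difference from no BAFF under mBaffR-mFc did not pass (adjusted p = 0.0703).

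Klf4 (chr4:55527143-55532466, minus strand) encodes a Krüppel-like factor that restrains proliferation of B cells and is also a factor of monocyte differentiation. It was at 5.38, 5.01 and 5.43 FPKM in Ab, at 5.27, 5.02 and 4.49 in Ab_3mer and at 3.84, 2.93 and 3.28 in Ab_60mer. Under mBaffR-mFc it was at 4.47, 4.75 and 4.36 in BRFc, at 4.85, 4.42 and 5.10 in BRFc_3mer and at 4.40, 4.16 and 4.03 in BRFc_60mer. The 3 Ab_60mer libraries were the lowest of all 18. The BRFc_60mer libraries overlapped those of BRFc and lay narrowly below those of BRFc_3mer without overlap. Of all genes, 19.2% lay lower without overlap in Ab_60mer than in Ab, and 12.1% than in Ab_3mer. In BRFc_60mer against BRFc_3mer it was 14.1%. The share lowest of all 18 was not counted. Under control antibody Klf4 fell with the 60mer, with differences of -0.53 ± 0.084 against no BAFF (adjusted p = 0.000749) and -0.45 ± 0.084 against the 3mer (adjusted p = 0.00471). Under mBaffR-mFc the same differences were -0.09 ± 0.084 (95% interval -0.27 to 0.09, adjusted p = 0.621) and -0.16 ± 0.084 (-0.33 to 0.02, adjusted p = 0.329). The test of that contrast between the reagents, the interaction for the 60mer, gave 0.44 ± 0.12 (95% interval 0.19 to 0.69, unadjusted p = 0.00168) but did not pass over all genes (adjusted p = 0.711). Without BAFF, BRFc differed from Ab by -0.18 ± 0.084 (adjusted p = 0.831), and with the 60mer BRFc_60mer differed from Ab_60mer by 0.26 ± 0.084 (adjusted p = 0.791). Klf4 rested on 65 to 163 fragments per library. It had 69, 65 and 84 in Ab_60mer, where the libraries held 12.2, 15.1 and 17.4 M fragments in all. In Ab it had 144, 161 and 125, of 18.2, 21.9 and 15.7 M. With the connective tissue term the difference from no BAFF was -0.70 and did not pass (adjusted p = 0.0827), that from the 3mer was -0.50 and did (adjusted p = 0.00864), and fitted on Ab_60mer and Ab_3mer alone the latter did not (adjusted p = 0.0766).

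Because Klf4 is also a gene of monocytes, the 10 myeloid markers were read beside it. Their summed FPKM was 158 to 179 in Ab_60mer and 167 to 186 in Ab, and 171 to 178 in BRFc_60mer and 167 to 190 in BRFc, so the groups overlapped. Under control antibody 9 of the 10 had a lower mean with the 60mer than without BAFF (median difference -0.12, against -0.02 over all genes) and 10 of 10 a lower mean than with the 3mer (median -0.17). Under mBaffR-mFc it was 6 of 10 (median -0.05) and 4 of 10 (median 0.02). One marker was called lower in 3 of these 4 comparisons, beside 8.94%, 3.01% and 3.11% of all genes. This was Cd14, the lipopolysaccharide co-receptor of monocytes, at -0.28 ± 0.086 and -0.34 ± 0.086 against no BAFF and 3mer under control antibody (adjusted p = 0.038 and 0.0324) and -0.38 ± 0.086 against the 3mer under mBaffR-mFc (adjusted p = 0.0161). Against no BAFF under mBaffR-mFc it was at -0.27 ± 0.086 (adjusted p = 0.0923). The part of myeloid cells in the difference of Klf4 was not tested.

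Ier2 (chr8:84661331-84662852, minus strand) was at 51.0, 52.4 and 52.4 FPKM in Ab, at 56.6, 46.3 and 51.5 in Ab_3mer and at 38.8, 43.7 and 43.7 in Ab_60mer. In BRFc it was at 54.4, 49.0 and 50.0 FPKM, in BRFc_3mer at 51.3, 49.5 and 55.3 and in BRFc_60mer at 44.5, 40.3 and 48.1. Within each reagent, the 60mer libraries lay below all libraries of the other 2 groups. Against no BAFF alone, 19.2% and 13.4% of all genes lay lower without overlap, under control antibody and mBaffR-mFc. Against the 3mer alone it was 12.1% and 14.1%, and the share below both groups was not counted. The difference passed under control antibody, at -0.30 ± 0.074 against no BAFF (adjusted p = 0.0146) and -0.28 ± 0.074 against the 3mer (adjusted p = 0.0389). Under mBaffR-mFc it was -0.20 ± 0.074 (adjusted p = 0.138) and -0.23 ± 0.074 (adjusted p = 0.0915), and the interaction was 0.10 ± 0.11 (95% interval -0.13 to 0.32). Of the 8 differences called among the 10 genes, that of Ier2 against the 3mer lost its call under the most alternatives. Against no BAFF the call was lost without library 1 of Ab_60mer (adjusted p = 0.0783) and with the connective tissue term (adjusted p = 0.577), and against the 3mer under 8 of the alternatives, among them leaving out library 1 or 3 of Ab_3mer (adjusted p = 0.167 and 0.121).

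Klf6 belongs to the Krüppel-like family, as does Klf4. Its lower means with the 60mer did not pass in the model with 6 groups and no further term. Its group means were 41.1 ± 1.05 FPKM in Ab, 43.2 ± 4.02 in Ab_3mer and 37.4 ± 0.815 in Ab_60mer (SD, n = 3), and 41.7 ± 1.41, 43.7 ± 2.04 and 37.8 ± 3.85 in BRFc, BRFc_3mer and BRFc_60mer. The Ab_60mer libraries lay below those of Ab and Ab_3mer without overlap, while BRFc_60mer overlapped both of its counterparts. Of all genes, 19.2% lay lower without overlap in Ab_60mer than in Ab, and 12.1% than in Ab_3mer. The differences between 60mer and no BAFF were -0.13 ± 0.068 and -0.14 ± 0.068 (adjusted p = 0.207 and 0.275), and between 60mer and 3mer -0.20 ± 0.068 and -0.21 ± 0.068 (adjusted p = 0.109 and 0.0974).

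Of the AP-1 subunits, the JUN and FOS proteins that pair to bind DNA, none passed in any comparison in the model with 6 groups and no further term. Junb came closest. It was at 70.3, 70.0 and 82.3 FPKM in Ab and at 49.4, 49.8 and 70.0 in Ab_60mer, groups that met only at their edges without overlap, a pattern in the lower direction that 19.2% of all genes showed in this comparison. The difference was -0.41 ± 0.17 (95% interval -0.76 to -0.05, adjusted p = 0.118), and without library 3 of Ab_60mer it passed (-0.57, adjusted p = 0.037). In BRFc_60mer the difference from BRFc was -0.17 ± 0.17 (adjusted p = 0.641). Jun, the other JUN member, was the only one of the 10 with a higher mean with the 60mer in all 4 comparisons against no BAFF or 3mer, from 0.07 ± 0.10 to 0.16 ± 0.10, and none of these passed (adjusted p = 0.377 to 0.759).

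Fos was at 12.3, 11.8 and 9.53 FPKM in Ab, at 19.8, 14.4 and 11.9 in Ab_3mer and at 12.4, 12.9 and 9.42 in Ab_60mer. Under mBaffR-mFc it was at 14.4, 10.3 and 11.3 FPKM in BRFc, at 16.4, 18.1 and 11.1 in BRFc_3mer and at 19.4, 8.72 and 6.96 in BRFc_60mer. All 6 groups overlapped, and BRFc_60mer held both the lowest library of all and one above every other library except library 1 of Ab_3mer. The 3mer means stood above those without BAFF by 0.40 ± 0.27 under control antibody and 0.30 ± 0.27 under mBaffR-mFc, with 95% intervals from -0.17 to 0.97 and from -0.27 to 0.87. Fosb, the FOS relative that also pairs with JUN, had 3mer differences of 0.15 ± 0.24 and 0.31 ± 0.24. Library 1 of BRFc_60mer decided the comparison of 60mer and 3mer under mBaffR-mFc. With it, Fos was at -0.45 ± 0.27 and Fosb at -0.38 ± 0.24 (adjusted p = 0.395 and 0.419), and without it both passed (-0.85 and -0.75, adjusted p = 0.0372 for each), as did Klf6 (-0.28, adjusted p = 0.0268).

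Egr1 and Nr4a1, genes commonly read as signs of recent antigen receptor signals, ran in the same way. Egr1 was at 63.2 ± 7.64 FPKM in Ab, 76.6 ± 15.1 in Ab_3mer and 64.3 ± 12.7 in Ab_60mer, and at 61.2 ± 7.61, 69.9 ± 13.7 and 61.3 ± 21.6 in BRFc, BRFc_3mer and BRFc_60mer (SD, n = 3). Nr4a1 was at 301 ± 19.6 FPKM in Ab, 349 ± 58.6 in Ab_3mer and 284 ± 45.8 in Ab_60mer, and at 272 ± 36.0, 311 ± 49.4 and 273 ± 67.6 under mBaffR-mFc in the same order. The 3mer means were the highest under both reagents, and the libraries of all groups overlapped. The 3mer differences from no BAFF were 0.26 ± 0.22 and 0.18 ± 0.22 for Egr1 and 0.20 ± 0.17 and 0.19 ± 0.17 for Nr4a1. Their 95% intervals reach from -0.28 to 0.72 for Egr1 and from -0.17 to 0.56 for Nr4a1 over both reagents. Between 60mer and 3mer, the differences of Nr4a1 were -0.30 ± 0.17 and -0.21 ± 0.17 (adjusted p = 0.346 and 0.548). Those of Egr1 were -0.25 ± 0.22 and -0.22 ± 0.22 (adjusted p = 0.561 and 0.618). With a block by order of deposition, added after seeing the data, Nr4a1 passed in this comparison under control antibody.

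None of the 10 genes passed with BAFF 3mer under either reagent. Against no BAFF, limma called 0 of the 10 and 0% of all tested genes, and none of the 10 had an unadjusted p under 0.05, in the fit on log2(FPKM + 1) or in a limma-voom fit on recovered fragments. Of all genes, 632 under control antibody and 388 under mBaffR-mFc were under that threshold in limma, and 632 and 454 in voom. The median of the 10 differences was 0.04 under control antibody and 0.07 under mBaffR-mFc. Between mBaffR-mFc and control antibody, with no BAFF, BAFF 3mer or BAFF 60mer, limma called 0 of the 10 each time, where it called 0%, 0% and 0.0258% of all genes, and voom called 0 as well. Klf4 alone had an unadjusted p under 0.05 in limma, with no BAFF (0.0443) and with the 60mer (0.00645), and in voom with the 60mer only. Of all 11646 genes, 688 and 540 were under that threshold in these 2 limma comparisons. In voom with the 60mer it was 398 of 11645. Both interactions also called 0 of the 10 with both tools, where limma called 0.00859% of all genes for the 60mer and 0% for the 3mer. At an unadjusted p under 0.05, both tools had only Klf4 for the 60mer and none for the 3mer. Over all genes, limma had 640 for the 60mer and 560 for the 3mer, and voom 613 and 581. Over all 6 groups the F test of limma called Btg2 (adjusted p = 0.000166), Klf4 (0.00496) and Ier2 (0.0271), where 8.93% of all genes passed.

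**Figure D2:**
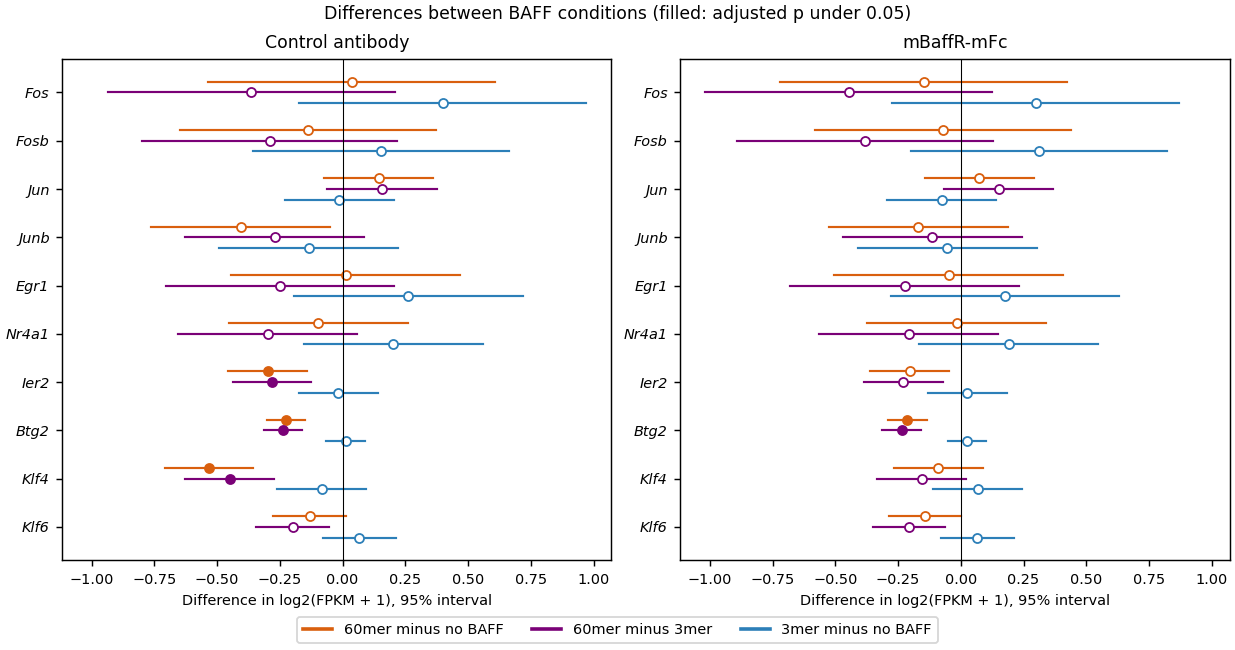
Differences in log2(FPKM + 1) (horizontal axes) for each gene (vertical axes) with 95% intervals, under control antibody (left) and mBaffR-mFc (right); filled points passed at an adjusted p under 0.05. Btg2 is at -0.21 to -0.24 in all 4 comparisons with the 60mer, and Klf4 at -0.53 and -0.45 under control antibody but -0.09 and -0.16 under mBaffR-mFc.

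The 10 genes differed widely in how closely the 3 libraries of a group agreed. The SD within groups, pooled over the 6 groups, was 0.034 for Btg2, smaller than that of 99.2% of tested genes. It was 0.39 for Fos, 0.34 for Fosb, 0.31 for Egr1, 0.24 for Nr4a1 and 0.24 for Junb, which is larger than that of 98.1%, 97.1%, 96.2%, 92.5% and 92.5% of tested genes, whose median was 0.095. Ier2 (0.099), Klf4 (0.090) and Klf6 (0.088) lay near that median and Jun (0.13) somewhat above it. Counting of fragments alone would give Nr4a1, with at least 9474 fragments in every library, an SD of 0.013, so its measured spread was 19.1 times that of counting. The ratio was 14.3 for Egr1, 7.74 for Junb, 5.85 for Fosb and 4.47 for Fos. For Klf4 it was 0.83, that is, its libraries differed by no more than counting error. The same difference between groups was therefore detectable at very different sizes, with an SE of 0.036 for Btg2 and of 0.27 for Fos.

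**Figure D3:**
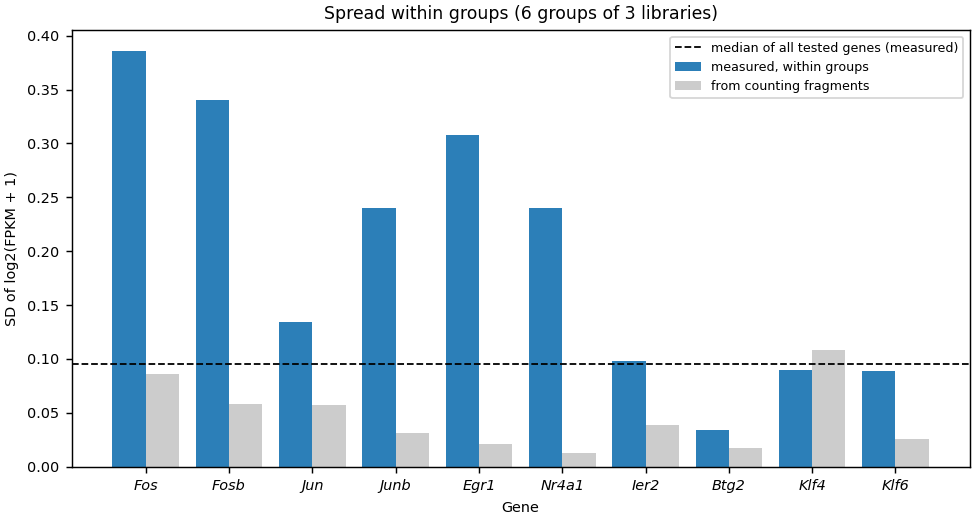
SD of log2(FPKM + 1) within groups (vertical axis, from 0) for each gene, as measured (blue) and as fragment counting alone would give (grey); the dashed line is the median measured SD of all tested genes, 0.095. Fos, Fosb, Egr1, Nr4a1 and Junb stand well above the line, and Btg2 at 0.034 below it.

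The spread was shared between genes. After subtracting group means, correlations between the deviations were computed over the 18 libraries for all 45 pairs of the 10 genes, and for Fos and Jun with the library total, 47 relations in all, with 100000 permutations of the libraries within groups and Benjamini-Hochberg adjustment. The permutations took no account of the order of deposition, which several of these genes followed, so that shared order enters the p-values. Pearson's r passed for 12 pairs. All 10 pairs among Fos, Fosb, Egr1, Nr4a1 and Klf6 were among them, with r from 0.79 to 0.99 and adjusted p from 0.0014 to 0.031. By Spearman's rho (0.71 to 0.97) 9 of these 10 passed, the exception being Nr4a1 with Klf6 (adjusted p = 0.054). Egr1 and Nr4a1 followed each other most closely, with r = 0.99 and rho = 0.97 (adjusted p = 0.0014 and 0.0016). Without the 2 libraries farthest from the median, libraries 1 and 3 of BRFc_60mer in each of these pairs, r was 0.64 to 0.98. It was 0.89 to 0.99 in the 8 libraries with connective tissue transcripts and 0.63 to 0.98 in the other 10. Within libraries of one position in the order of deposition, 6 for each position, r was 0.84 to 0.95, 0.21 to 0.93 and 0.73 to 0.97.

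The other 2 pairs that passed joined Jun with Junb (r = 0.78, rho = 0.79, adjusted p = 0.016 and 0.015) and Jun with Ier2 (r = 0.77, rho = 0.76, adjusted p = 0.023 and 0.027), while Junb with Ier2 did not (r = 0.70, rho = 0.64, adjusted p = 0.099 and 0.14). Without the 2 farthest libraries these 3 values of r were 0.79, 0.70 and 0.62. Among the 6 libraries numbered 3, r was -0.34, 0.30 and 0.06, so there the relation was not seen. Between these 3 genes and the 5 above, all 15 pairs had r from -0.52 to 0.05 over the 18 libraries and none passed. Neither did any pair with Btg2 (-0.38 to 0.15) or with Klf4 (-0.25 to 0.38). Within libraries of one position in the order of deposition, the 15 pairs between the sets had other values. Their r was 0.07 to 0.78 at position 1, -0.23 to 0.55 at position 2 and -0.91 to 0.46 at position 3, with 6 libraries each. At position 1, Jun had r of 0.62 to 0.78 with the 5 genes. Fos and Jun were not detectably related to the library total (r = -0.36 and 0.14, adjusted p = 0.65 and 0.82). The division of the genes into these sets was read from the correlations themselves.

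**Figure D4:**
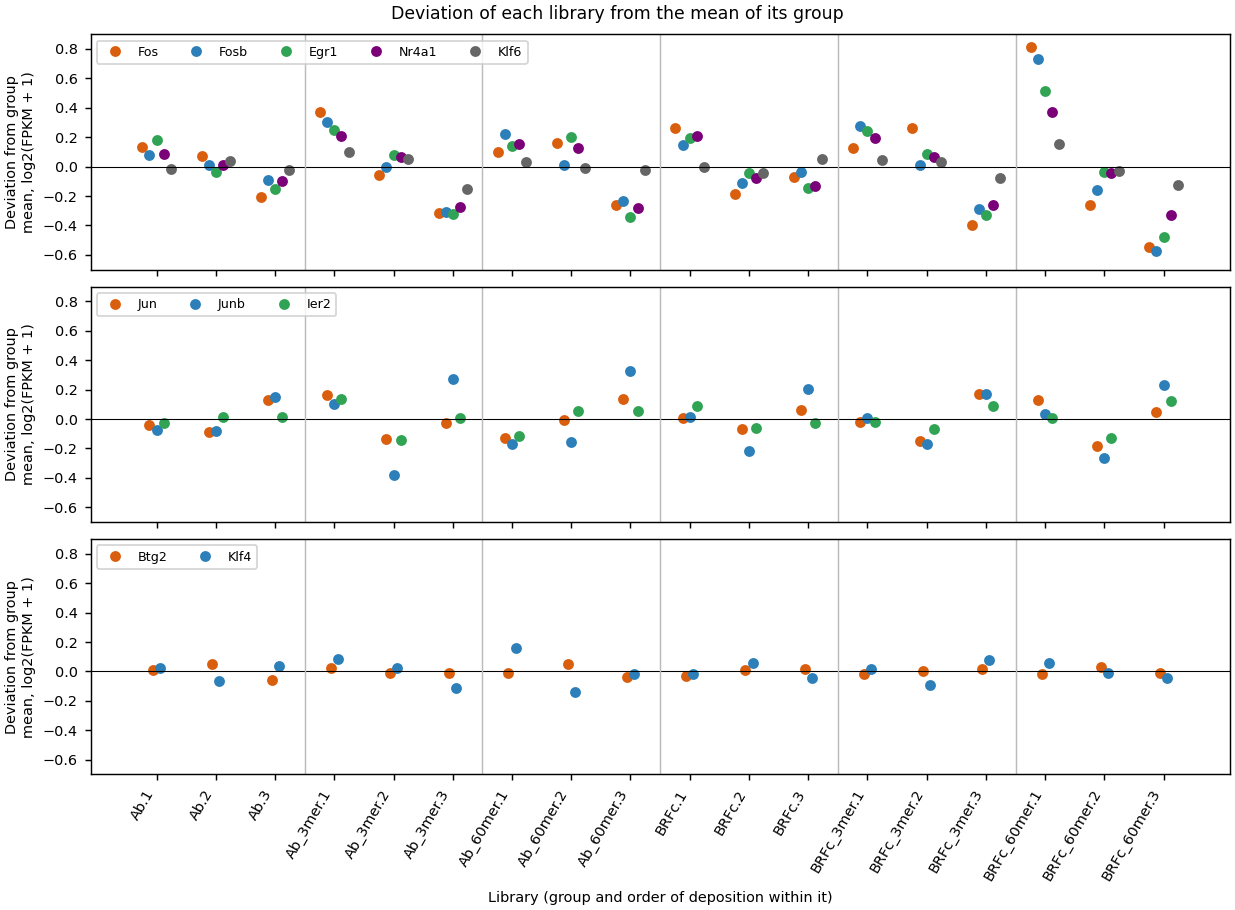
Deviation of each library from its group mean in log2(FPKM + 1) (vertical axes) for 18 libraries (horizontal axis), in 3 panels of genes; vertical lines separate groups. In the upper panel Fos, Fosb, Egr1, Nr4a1 and Klf6 are high or low in the same libraries, most widely in BRFc_60mer, whereas Btg2 in the lower panel stays near 0.

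**Figure D5:**
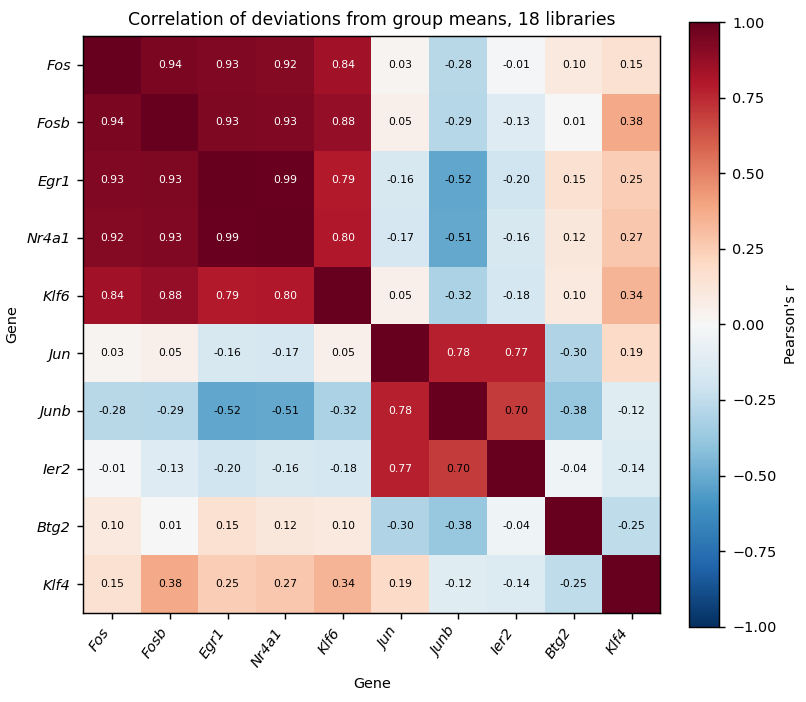
Pearson's r between deviations from group means for each pair of the 10 genes (both axes) over 18 libraries, with the colour scale from -1 to 1. Fos, Fosb, Egr1, Nr4a1 and Klf6 form a block with r of at least 0.79, and Jun, Junb and Ier2 a second with r of at least 0.70.

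The genes with the pattern most like that of the 10, by Pearson's r over the 18 libraries with the mean of their standardised values among 8539 other genes averaging 5 FPKM or more, were Fosl2, an AP-1 subunit (r = 0.91), the chemokine receptor gene Cxcr4 (0.90), the ERK phosphatase gene Dusp5 (0.89), the insulin receptor substrate gene Irs2 (0.88), the urokinase receptor gene Plaur (0.87) and Gch1, of tetrahydrobiopterin synthesis (0.87). Since they were chosen for following the 10 genes over all libraries, their own differences between 60mer and no BAFF are a description only, from -0.15 for Cxcr4 to -0.49 for Plaur under control antibody and from -0.08 for Cxcr4 to -0.37 for Plaur under mBaffR-mFc. With group means subtracted, the most alike included Maff, a small MAF protein (0.92), Egr3 (0.89), Vsir, which encodes the checkpoint receptor VISTA (0.89), the histone demethylase gene Kdm6b (0.87) and Tob2 (0.87). These correlations describe the same 18 libraries and carry no test.

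The 7 lists of relatives, feedback, upstream and stress genes held 81 tested genes. With the 60mer against no BAFF, 8 of these rose and 11 fell under control antibody, 23.5% of them beside 14% of all genes, and 6 rose and 4 fell under mBaffR-mFc, 12.3% beside 4.83%. Of the KLF relatives, 2 of 8 tested fell with the 60mer against no BAFF under each reagent, Klf2 and Klf13, and 6 did not pass. Klf2, the factor that keeps lymphocytes quiescent and recirculating, fell from 69.1 to 48.0 FPKM under control antibody (-0.52 ± 0.062, adjusted p = 7.63e-05) and from 69.4 to 52.4 under mBaffR-mFc (-0.40 ± 0.062, adjusted p = 0.00119). For Klf13 the differences were -0.29 ± 0.077 and -0.36 ± 0.077 (adjusted p = 0.0209 and 0.0109). Klf2 thus fell under mBaffR-mFc as well, where the difference of Klf4 did not pass. Whether the 2 genes responded differently to mBaffR-mFc was not tested. Of the 8 tested AP-1 relatives 1 fell under control antibody, the small MAF gene Mafk (-0.29 ± 0.091, adjusted p = 0.0444), and none passed under mBaffR-mFc, where the smallest p-values were those of Mafg (-0.14, adjusted p = 0.246) and Fosl2 (-0.23, adjusted p = 0.383).

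Among 6 tested relatives of Egr1 and Nr4a1, the EGR corepressor genes Nab1 and Nab2 moved in opposite directions, and the factors themselves did not pass. Nab1 rose from 52.9 to 64.6 FPKM with the 60mer under control antibody (0.28 ± 0.045, adjusted p = 0.000845) and from 54.4 to 65.0 under mBaffR-mFc (0.25 ± 0.045, adjusted p = 0.00362). Nab2 fell from 26.9 to 21.3 FPKM (-0.32 ± 0.073, adjusted p = 0.0091) and from 25.5 to 20.0 (-0.34 ± 0.073, adjusted p = 0.0127). Egr2, Egr3, Nr4a2 and Nr4a3 had differences between -0.25 and 0.32 in these comparisons. Of the 8 relatives of Ier2 and Btg2, Ier5l fell under control antibody (-0.51 ± 0.13, adjusted p = 0.0188), from 2.06 to 1.15 FPKM, and Btg1, the closest relative of Btg2, rose under mBaffR-mFc (0.15 ± 0.041, adjusted p = 0.0397).

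Of 18 tested feedback genes of the immediate early response, which include phosphatases of the MAP kinases and proteins that destabilise short-lived mRNAs, 1 rose and 3 fell with the 60mer under control antibody. Zfp36l1, an mRNA decay factor, rose (0.20 ± 0.035, adjusted p = 0.00157), and its relative Zfp36l2 (-0.28 ± 0.083, adjusted p = 0.032), the salt-inducible kinase gene Sik1 (-0.27 ± 0.063, adjusted p = 0.0107) and Dusp5 (-0.28 ± 0.083, adjusted p = 0.0343) fell. Under mBaffR-mFc 1 rose and 1 fell, again Zfp36l1 (0.27 ± 0.035, adjusted p = 0.000262) and Sik1 (-0.39 ± 0.063, adjusted p = 0.00168). Of 22 upstream genes, 4 rose and 3 fell under control antibody. Creb1, which encodes a factor of the cyclic AMP response element, rose from 79.8 to 98.0 FPKM (0.29 ± 0.042, adjusted p = 0.00037) and the MAP kinase kinase kinase gene Braf by 0.28 ± 0.073 (adjusted p = 0.0201). Binding to the promoter stretches marked above was not measured. Mrtfa, an SRF coactivator gene (-0.24 ± 0.055, adjusted p = 0.0108), and Mapk3, which encodes ERK1 (-0.31 ± 0.085, adjusted p = 0.023), fell. Under mBaffR-mFc 2 rose and none fell, Creb1 (0.21 ± 0.042, adjusted p = 0.0068) and the kinase gene Rps6ka1 (0.17 ± 0.044, adjusted p = 0.0319). Of 11 tested genes of heat shock and handling stress, 2 rose under control antibody, Hspa8 (0.16 ± 0.045, adjusted p = 0.0268) and Hspd1 (0.15 ± 0.048, adjusted p = 0.0471), and 1 under mBaffR-mFc, Hspa8 (0.17 ± 0.045, adjusted p = 0.0411). The median differences of the 7 lists lay between -0.14 and 0.10 over both reagents, beside -0.02 over all genes.

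Against the 3mer, 6 of the 81 passed under control antibody, 7.41% beside 4.81% of all genes. Klf2 (-0.44 ± 0.062, adjusted p = 0.000535) and Klf13 (-0.32 ± 0.077) fell, Nab1 (0.22 ± 0.045), Zfp36l1 (0.17 ± 0.035) and Creb1 (0.24 ± 0.042) rose, and Sik1 fell (-0.31 ± 0.063). All of these but Klf13 also passed with the connective tissue term. Under mBaffR-mFc 10 of the 81 passed, 12.3% beside 5.16% of all genes, of which Nab1, Zfp36l1, Creb1, Rps6ka1, Hsp90ab1 and Hspa8 rose and Klf2, Nab2, Sik1 and Dusp5 fell. With the connective tissue term none of the listed genes called in the other 3 comparisons with the 60mer passed. There the term rests on Ab_3mer alone, which widens the SE, so these lost calls cannot decide the part of the transcripts.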

How the data were processed

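RNA of 18 libraries was sequenced by a company, which per the labels also computed the deposited FPKM values, the only unit used here. The aligner, counting tool, genome build and any scaling between libraries are not given in the sources used here. Of 35275 gene IDs, 34490 matched a symbol in GENCODE M21 (GRCm38), the source of gene positions.

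Library totals and whole fragments were recovered from the steps between deposited FPKM values. Of 64897 values of single-transcript genes under 500 fragments, 84.5% were whole to within 0.02, and 11645 of the 11646 tested genes gave whole fragments in all libraries. Values were tested as log2(FPKM + 1), which understates changes of low genes, for genes averaging 1 FPKM or more. The test was limma's moderated one with a mean-variance trend (version 3.58.1, R version 4.3.3; all 6 groups in one fit, Benjamini-Hochberg over all tested genes, two-sided). Counting SD was taken from the recovered fragments and covers counting error only. Steps were tested on simulated data. Correlations and figures were made in Python 3.11.15 with scipy 1.17.1 and matplotlib 3.10.9.

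The genes and all lists were chosen with earlier results of these data known. From each list, up to 4 genes with the smallest p among those that passed were named, or up to 2 where none did, and the 6 genes most like the 10, of which 1 is not reported here. Mkl1 and Mkl2 were matched by their current symbols, Mrtfa and Mrtfb. The alternatives tried were a pseudocount of 0.1, dropping the filter or raising it to 5 FPKM, rescaling by median of ratios, weights for library quality, fits restricted to the groups compared, a term for connective tissue transcripts and leaving out each library. Added after seeing the data were limma-voom on recovered fragments and a block by order of deposition. The labels give no replicate numbers and no batches.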

Additional observations from a re-analysis of the deposited data

How the results depend on the processing

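The 8 differences called among the 10 genes had 118 values under the alternatives, of which 102 kept direction and call, 16 kept direction only and 0 reversed. The 48 called differences of listed relatives and of Cd14 had 514 values that kept the call, 205 that kept direction only and 0 that reversed. Differences that were called in neither fit changed sign in 149 of 1626 values. Klf4 has no value under the minimum of 5 FPKM.

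Counts below are of the 10 genes first and of all genes second. With the connective tissue term they were 0 and 16 for 60mer against no BAFF under control antibody (from 3 and 1628), 0 and 10 under mBaffR-mFc (from 1 and 563), 0 and 15 for 60mer against 3mer under mBaffR-mFc (from 1 and 601) and 0 and 50 for the F test (from 3 and 1040). In these comparisons the term rests on the libraries of Ab_3mer alone, which widens the SE. For 60mer against 3mer under control antibody, where the term acts like leaving out library 3 of Ab_3mer, 246 genes passed (from 560), and Klf6 did too (-0.27, adjusted p = 0.0409). Fitted on the groups compared alone, 1053 genes passed for 60mer against no BAFF under control antibody, 1 and 252 for 60mer against 3mer there, 0 and 139 for 60mer against no BAFF under mBaffR-mFc, and 287 genes for 60mer against 3mer there. Quality weights gave 2 and 1386, and 3 and 1318, for the comparisons of the 60mer with no BAFF and with the 3mer under mBaffR-mFc, and 1942 genes for the F test; the genes added were Ier2 (adjusted p = 0.0365 and 0.0209) and Klf6 (adjusted p = 0.016).

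Leaving out 1 library gave 756 to 1668 genes (2 to 4 of the 10) for 60mer against no BAFF under control antibody, with changes over 1.5-fold without libraries 1 or 2 of Ab (823 and 1000 genes) or of Ab_60mer (756 and 983). Under mBaffR-mFc it gave 242 to 731 (1 of the 10), with such changes without libraries 2 or 3 of BRFc (306 and 242) or 1 or 2 of BRFc_60mer (340 and 321). For 60mer against 3mer it gave 246 to 471 (2 to 3 of the 10) under control antibody, with such changes without libraries 1 or 3 of Ab_3mer (318 and 246) or 1 or 2 of Ab_60mer (259 and 353). Under mBaffR-mFc it gave 233 to 543 (1 to 4 of the 10), with such changes without libraries 2 or 3 of BRFc_3mer (270 and 233) or library 2 of BRFc_60mer (343). The F test passed 671 to 1160 (2 to 4 of the 10), fewest without library 1 of Ab_60mer. The call of Ier2 against the 3mer was also lost with no filter (adjusted p = 0.0869), on the groups compared alone (0.112), with the connective tissue term (0.121) and without libraries 1, 2 or 3 of Ab_60mer (0.177, 0.0612 and 0.0506). Without library 3 of BRFc_60mer, Ier2 passed against the 3mer under mBaffR-mFc (adjusted p = 0.0498).

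Deviations of libraries at the same position in the order of deposition had correlations of -0.069 to 0.39 (median 0.09, 45 pairs), against a median of -0.05 (90 pairs) at other positions. Deviations from a group mean cancel within the group, so the values at other positions are not an independent baseline. Since not every pair at the same position was above 0.1, position was not taken to pair the libraries, though single genes among the 10 followed it. With position as a replicate block, 6 and 1099 passed for 60mer against 3mer under control antibody, adding Junb, Nr4a1 and Klf6 (adjusted p = 0.0386, 0.0237 and 0.0439), and 2 and 943 under mBaffR-mFc. For 60mer against no BAFF, Junb was added under control antibody (adjusted p = 0.00198) and 1105 genes passed under mBaffR-mFc. The F test then passed 6 and 1871.

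Median-of-ratios rescaling moved the share of higher calls for 60mer against no BAFF from 36.1% to 46.4% under control antibody and from 30.2% to 43.9% under mBaffR-mFc. The causes of these changes were not tested. Depth limits Klf4, at 65 to 163 fragments.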

Other observations

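Within groups, the same genes tended to be high in libraries at one position in the order of deposition. Library 1 was the highest of its group in 6 of 6 groups for Fosb and Nr4a1, in 5 for Egr1 and in 4 for Fos and Klf6, and library 3 was the lowest in 6 of 6 for Egr1 and Nr4a1 and in 5 for Fos, Fosb and Klf6. For Junb library 3 was the highest in 6 of 6 groups and for Jun in 4, and library 2 was the lowest in 5 for each. Btg2, Klf4 and Ier2 had their highest library at each of the 3 positions, and Btg2 its lowest as well. For Ier2 library 2 was the lowest in 4 groups and library 3 in 0. For Klf4 library 1 was the lowest in 0, and libraries 2 and 3 in 3 each. The labels do not say what the order of deposition stands for, and its part in these values was not tested.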
